A study of Mus musculus with 36 samples.

Results

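The genes of MHC class II antigen presentation were followed through 35 RNA-seq libraries of mouse hippocampus. They are 7 of the 24421 gene symbols in the deposited tables: Cd74, H2-Aa, H2-Ab1, H2-Eb1, H2-DMa, H2-DMb1 and Ciita. They were taken by symbol, and all 7 were present and passed the filter on low values in every comparison. The study has 6 groups of 6 libraries, with 3 females and 3 males in each, of which 1 library was left out for low depth. The aging arm held C57BL/6 mice: nanoligomer-treated old mice of 18 months, control-treated old mice of 18 months and control-treated young mice of 8 months. The transgenic arm held mice of 4 months: nanoligomer-treated APP/PS1 mice, control-treated APP/PS1 mice, and control-treated littermates that did not carry the transgenes. APP/PS1 mice express amyloid precursor protein and presenilin transgenes and are used as a model of amyloid deposition. A nanoligomer is a short synthetic antisense molecule, and the series title names NF-κB and NLRP3 as what was lowered. No source used here gives the APP/PS1 line, its promoters, its strain background, the dose or how long treatment lasted. No library is stated to come from a separate animal, so p-values measure the spread between these samples, which may be technical.

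MHC class II molecules are pairs of an alpha and a beta chain that display peptides from endosomes to CD4 T cells. Cd74, the invariant chain, holds new pairs together and blocks their groove until endosomal proteases cut it, and the H2-DM pair then exchanges its remnant for other peptides. Transcription of these genes depends on Ciita, a coactivator without DNA binding of its own that joins a protein assembly on X and Y boxes of their promoters and that interferon gamma induces. In a healthy brain class II is found mainly on macrophages and dendritic cells of the borders, and on few microglia.

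On GRCm38, in 1-based coordinates of the GENCODE annotation, 5 of the 7 genes lie within the class II region of chromosome 17. H2-Aa, the alpha chain of the I-A molecule, spans 34282744 to 34287823 on the minus strand, and H2-Ab1, its beta chain, 34257689 to 34269419 on the plus strand. H2-Eb1, the beta chain of the I-E molecule, spans 34305867 to 34316674 on the plus strand and overlaps Gm20513 on the other strand. H2-DMa spans 34119541 to 34139101 on the plus strand and overlaps 4 other annotated genes, Brd2 among them, and H2-DMb1 spans 34153072 to 34160230 on the same strand. Ciita lies on chromosome 16 from 10480059 to 10528418 and overlaps Dexi on the other strand. All 7 genes, Cd74 included, are annotated as protein-coding. No source used here says whether reads were counted by strand, so reads in the overlaps could belong to either gene, and those of H2-DMb1 could be shared with its close paralog H2-DMb2.

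Promoter windows from RefSeq (GRCm38.p6, 250 bases before to 50 after the start) were at hand for 4 members. They were searched on both strands for GNAAC, the core letters of an X box, and GATTGG, those of a Y box, starting 25 to 35 bases further on. These letters and the spacing were chosen with the windows in view. The ordered pair stood in the windows of H2-Aa, H2-Eb1 and H2-DMb1, and in 0.651% of all 32851 windows. The single motifs stood in 84.8% and 16.1% of all windows. The 3 windows are shown because all of them hold these letters, which are in capitals. They are written along the strand of the gene.
H2-Aa, chr17:34287774-34288073, minus strand: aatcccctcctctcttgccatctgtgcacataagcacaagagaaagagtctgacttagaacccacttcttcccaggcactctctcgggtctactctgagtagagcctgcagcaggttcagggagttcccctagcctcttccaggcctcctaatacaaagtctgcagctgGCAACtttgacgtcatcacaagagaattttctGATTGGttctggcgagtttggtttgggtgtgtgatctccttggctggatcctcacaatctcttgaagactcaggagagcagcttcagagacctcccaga
H2-Eb1, chr17:34305617-34305916, plus strand: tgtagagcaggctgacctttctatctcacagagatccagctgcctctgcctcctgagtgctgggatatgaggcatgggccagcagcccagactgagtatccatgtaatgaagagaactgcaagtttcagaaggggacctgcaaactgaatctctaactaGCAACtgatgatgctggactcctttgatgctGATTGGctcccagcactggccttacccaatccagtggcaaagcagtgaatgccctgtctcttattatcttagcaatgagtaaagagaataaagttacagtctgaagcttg
H2-DMb1, chr17:34152941-34153240, plus strand: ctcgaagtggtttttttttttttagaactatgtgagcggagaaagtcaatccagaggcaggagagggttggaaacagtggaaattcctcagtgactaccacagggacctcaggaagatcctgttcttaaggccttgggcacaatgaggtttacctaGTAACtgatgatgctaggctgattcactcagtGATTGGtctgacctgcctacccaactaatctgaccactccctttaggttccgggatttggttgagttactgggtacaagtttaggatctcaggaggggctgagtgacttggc
The X letters began at base -81 from the start in H2-Aa, -91 in H2-Eb1 and -94 in H2-DMb1. The Y letters followed after 32, 31 and 32 bases. Neither of the 2 windows listed for H2-DMa, 34122582 to 34122881 and 34125268 to 34125567, held the pair. Both lie inside the annotated span of the gene and not at its annotated start. Whether they cover its class II promoter is not known, so they do not show that H2-DMa lacks the pair.

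Cd74 lies on chromosome 18 from 60803848 to 60812652 on the plus strand and contains the microRNA gene Mir5107. Depth was 27.6 to 46.3 M reads on genes per library. Female 3 of the APP/PS1 nanoligomer group held 0.913 M reads and was left out, so that group has 5 libraries. Levels across groups are CPM, reads per M reads of the library, and levels between genes are RPKM, CPM per kb of exon. All 8 hippocampal neuron markers had reads in each group, with summed levels from 211 CPM in old male 3 to 858 CPM in old female 3. At this depth, having reads cannot check the tissue label. All 12 markers of border macrophages and all 12 of homeostatic microglia had reads in each group as well. Of 7 measured B cell markers, Ms4a1 had no read in any of the 3 groups of the transgenic arm and Blk none in its APP/PS1 groups. In bulk RNA, fewer cells of a type and less RNA per cell cannot be told apart.

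Per length, Cd74 and H2-DMa were the most abundant of the 7 genes. Their medians over the 35 libraries were 3.72 and 3.87 RPKM. H2-DMb1 followed with a median of 0.719 RPKM, H2-Eb1 with 0.692, H2-Ab1 with 0.583, H2-Aa with 0.337 and Ciita with 0.2998. The genes differed more in how far they ranged. H2-DMa varied 2.52-fold and Ciita 3.89-fold between the lowest and the highest library. The same ratio was 48.7 for Cd74, 58.4 for H2-Eb1, 74.9 for H2-DMb1, 369 for H2-Ab1 and 574 for H2-Aa, whose lowest library held 1 read.

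3 libraries stood apart from their groups for several of the 7 genes. Old male 1 had 70.7 CPM of Cd74, against 4.08 to 12.3 CPM in the other 5 old libraries. It was the highest of all 35 libraries for each of the 7 genes. Its levels were 6.95 to 9.03 times the median of the other old libraries for Cd74, H2-Aa, H2-Ab1 and H2-Eb1. The ratio was 2.88 for H2-DMb1, 1.40 for H2-DMa and 1.35 for Ciita. APP/PS1 female 3 had 12.01 CPM of Cd74, against 1.53 to 5.04 CPM in the other 5 APP/PS1 libraries, and 6.85 times their median of H2-Ab1. APP/PS1 nanoligomer female 2 had 20.3 CPM of Cd74, against 1.45 to 4.15 CPM in the other 4 libraries of its group. In the last 2 libraries Ciita stood at 0.713 and 0.772 of the median of their groups.

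**Figure D1:**
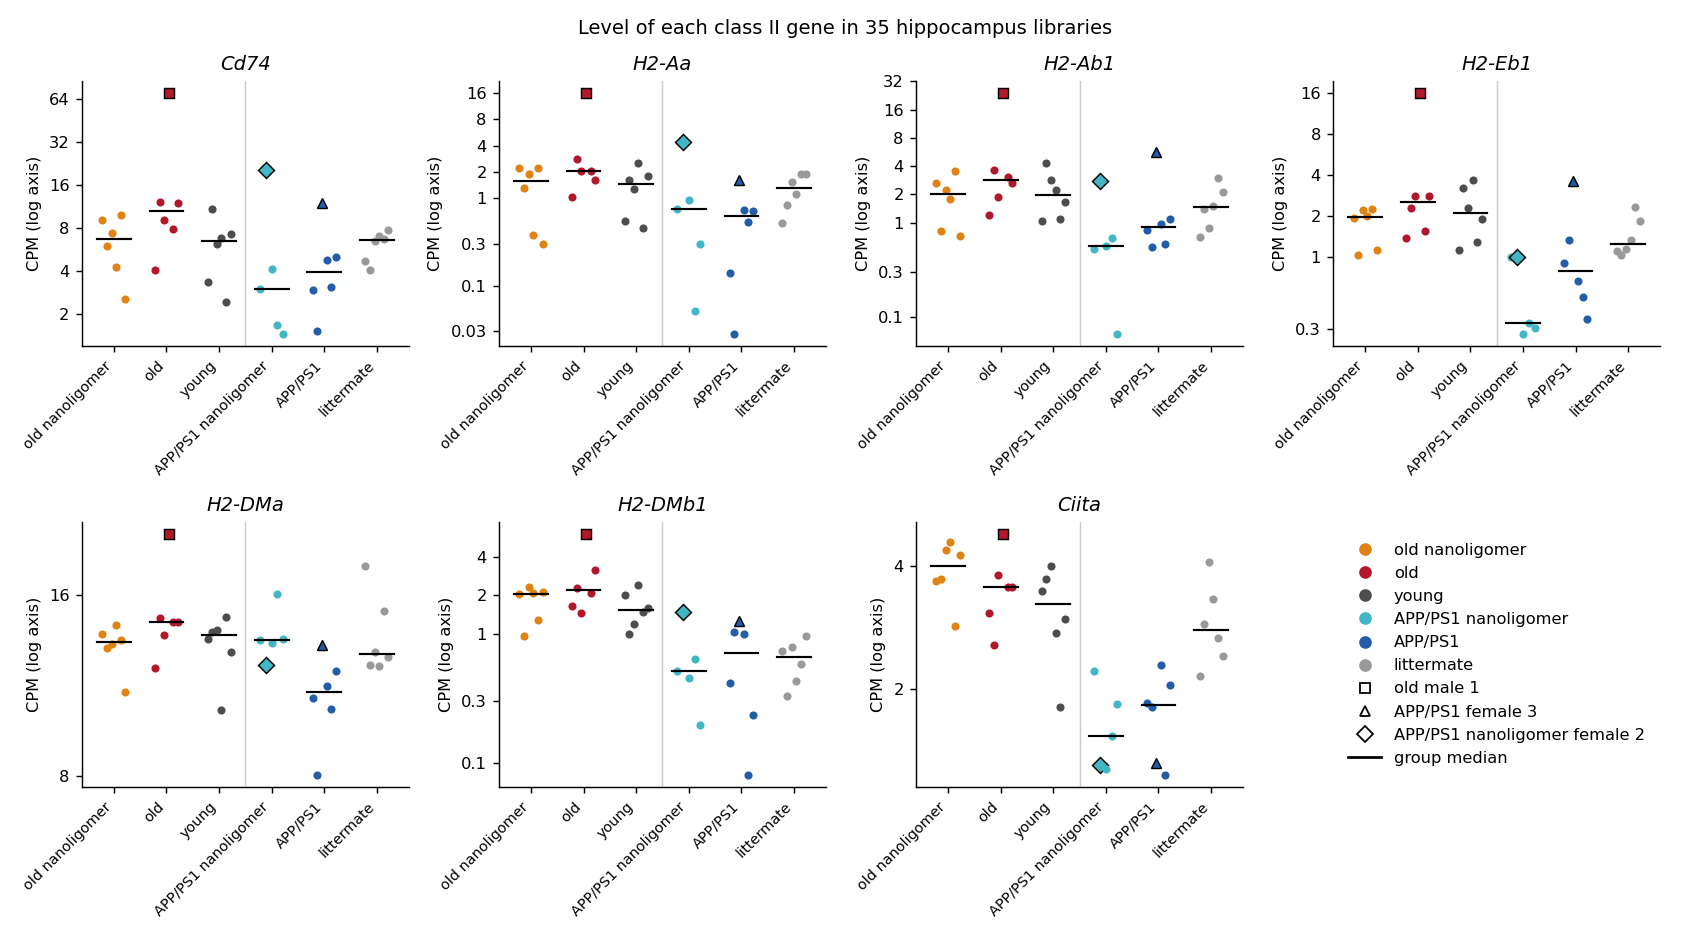
Level of each gene in every library, in CPM on a log axis, with 1 point per library and a line at the group median. The square is old male 1, the triangle APP/PS1 female 3 and the diamond APP/PS1 nanoligomer female 2, with 70.7, 12.01 and 20.3 CPM of Cd74.

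The 3 libraries differed in which cell type markers they carried. In old male 1 the summed levels were 31.7 CPM for border macrophages, 490 for homeostatic microglia, 14.7 for dendritic cells and 1.53 for B cells. The sums of border macrophages and dendritic cells were the lowest of the 6 old libraries, whose highest were 37.2 and 20.8 CPM. Those of reactive microglia (2291 CPM) and choroid plexus (243 CPM) were the highest of the 6. For reactive microglia old male 1 ranked 4 of the 35 libraries, with littermate female 1 (2591 CPM) and young male 1 (2432 CPM) among those above it. Old male 1 also had 20.9 CPM of monocyte and 7.25 CPM of T cell markers. Over the 6 old libraries these sums ran from 11.46 to 26.8 and from 2.97 to 11.4 CPM. APP/PS1 female 3 was the highest of the 35 libraries for border macrophages (73.8 CPM), homeostatic microglia (784 CPM), reactive microglia (2635 CPM) and monocytes (43.5 CPM). APP/PS1 nanoligomer female 2 had 40.7 CPM of border macrophage markers, the highest of its group. Its 926 CPM of choroid plexus markers lay within the group's 61.8 to 3883 CPM. Its 377 CPM of homeostatic microglia markers lay within the group's 367 to 405 CPM. The part of these markers in the class II levels was not tested.

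Old against young asked what differed between 18 and 8 months. The estimates of all 7 genes were positive. Their median was 0.67 on the log2 scale, against -0.00 over all 16626 genes tested. None passed in limma at an adjusted p under 0.05, where 0.0361% of genes did. Positive estimates made up 48.6% of all genes and negative ones 51.4%. Cd74 had 4.08, 10.6 and 70.7 CPM as lowest, median and highest level in old mice, against 2.43, 6.54 and 10.95 CPM in young mice. Apart from old male 1 the old libraries ended at 12.3 CPM, near the highest young library. The normalized counts of Cd74 averaged 778 ± 1011 in old mice and 246 ± 119.6 in young mice (SD, n = 6 each). On the log2 scale it differed by 1.14 ± 0.563 (SE; limma adjusted p = 0.834), and 0.64 without old male 1.

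The I-A chains followed the same pattern. H2-Aa had 1.02, 2.04 and 16 CPM as lowest, median and highest in old mice, against 0.451, 1.45 and 2.55 CPM in young mice, with a log2 fold change of 1.17 ± 0.586. H2-Ab1 had 1.21, 2.86 and 24.0 CPM in old mice, against 1.05, 1.96 and 4.33 CPM in young mice, with a log2 fold change of 0.83 ± 0.603. For both chains the old and young libraries overlapped. The I-E beta chain H2-Eb1 had 1.40, 2.55 and 16 CPM in old mice, against 1.13, 2.11 and 3.71 CPM in young mice. Without old male 1 the log2 fold change was 0.67 for H2-Aa, 0.27 for H2-Ab1 and 0.03 for H2-Eb1, where it was 0.51 with that library.

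The peptide exchanger genes and the coactivator had narrower ranges. H2-DMb1 had 1.45, 2.20 and 6.03 CPM in old mice, against 1.01, 1.54 and 2.40 CPM in young mice. Its log2 fold change of 0.67 ± 0.275 had the smallest p of the 7 genes (limma unadjusted p = 0.0313, adjusted p = 0.770). It was the only member at an unadjusted p under 0.05 in limma, where 3.37% of all genes were higher, 2.77% lower and 6.13% either. Without old male 1 its estimate was 0.46. H2-DMa had 12.1, 14.4 and 20.2 CPM in old mice, against 10.3, 13.7 and 14.7 CPM in young mice. Ciita had 2.57, 3.56 and 4.81 CPM in old mice, against 1.81, 3.23 and 4.00 CPM in young mice. The log2 fold changes were 0.18 ± 0.132 for H2-DMa and 0.22 ± 0.206 for Ciita, and 0.09 and 0.11 without old male 1. EdgeR and DESeq2 called 0 of the 7 as well, and 0.0361% and 0.742% of all genes. Old and young libraries overlapped for all 7 genes, while 0.403% of all genes were higher and 0.102% lower in every old library than in any young one.

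Around these genes, 9 of 10 measured proteases and regulators of peptide loading had positive estimates with age, and none passed in limma. Ctss, the protease that trims Cd74 in the endosome, had the smallest p of that list, with 3365 ± 963 normalized counts in old mice and 2080 ± 141 in young mice, a log2 fold change of 0.65 ± 0.152 (limma adjusted p = 0.313). It was the 1 gene of the list that DESeq2 called. Ctsd, another endosomal protease, followed at 0.12 ± 0.0812. Of 9 genes on the interferon gamma route to Ciita 6 were positive, with a median of 0.12. Irf8, a myeloid transcription factor, stood at 0.54 ± 0.162. Of 5 costimulation genes 4 were positive. Cd86, a ligand of CD28, stood at 0.56 ± 0.216 and the adhesion gene Icam1 at 0.60 ± 0.237. The transcription factors of the class II promoter assembly had a median of -0.05 over 7 genes, with Creb1 at -0.13 ± 0.0698 and Nfya at -0.15 ± 0.104. Among surface partners of Cd74, Cd44 stood at 0.32 ± 0.337 and Cxcr4 at -0.38 ± 0.427, with 2 of 5 positive.

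Homeostatic microglia markers summed to 435 to 579 CPM in old mice, against 380 to 437 CPM in young mice, and monocyte markers to 11.46 to 26.8 CPM in old mice, against 4.29 to 12.6 CPM in young mice. Estimates of 10 of 10 reactive microglia markers were positive, with a median of 0.70 on the log2 scale, and 1 of them was called by limma and 5 by DESeq2. Their sums overlapped, with 1749 to 2291 CPM in old mice and 1429 to 2432 CPM in young mice. Border macrophage sums were 31.7 to 37.2 CPM in old mice and 27.3 to 32.7 CPM in young mice. Choroid plexus markers ran from 23.1 to 243 CPM in old mice and from 13.2 to 4091 CPM in young mice, with 8 of 8 estimates negative. Every marker of these lists had reads in both groups. Their part in the class II estimates was not tested, and other differences between the cohorts cannot be told apart from age.

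Old nanoligomer against old asked what the treatment did at 18 months. These estimates share the old libraries with the age comparison, so both lean on old male 1. Ciita was positive and the other 6 genes negative. Their median was -0.79 on the log2 scale, against -0.00 over 16517 genes tested. Negative estimates made up 51% of all genes and positive ones 49%. None of the 7 was called by limma, edgeR or DESeq2, which called 0%, 0% and 0.0122% of all genes, and none had an unadjusted p under 0.05 in limma, where 3.62% of all genes were higher, 3.6% lower and 7.22% either. Cd74 had 2.56, 6.74 and 9.98 CPM as lowest, median and highest in treated old mice, against 4.08, 10.6 and 70.7 CPM in old mice. That gave a log2 fold change of -1.02 ± 0.550 (limma adjusted p = 0.687), and -0.49 without old male 1.

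H2-Aa had 0.298, 1.60 and 2.23 CPM in treated old mice, against 1.02, 2.04 and 16 CPM in old mice. H2-Ab1 had 0.720, 2.01 and 3.53 CPM in treated old mice, against 1.21, 2.86 and 24.0 CPM in old mice. The log2 fold changes were -1.28 ± 0.674 and -1.03 ± 0.594, and -0.69 and -0.50 without old male 1. H2-Eb1 had 1.04, 1.97 and 2.28 CPM in treated old mice, against 1.40, 2.55 and 16 CPM in old mice, with a log2 fold change of -0.79 ± 0.475 that was -0.31 without that library. Treated and untreated libraries overlapped for all 7 genes, while 0.133% of all genes were lower and 0.121% higher in every treated library. H2-DMb1 had 0.973, 2.05 and 2.34 CPM in treated old mice, against 1.45, 2.20 and 6.03 CPM in old mice (log2 fold change -0.51 ± 0.307, and -0.29 without old male 1). H2-DMa had 11.05, 13.3 and 14.3 CPM in treated old mice, against 12.1, 14.4 and 20.2 CPM in old mice (log2 fold change -0.17 ± 0.109, and -0.09 without old male 1). Ciita had 2.86, 4.00 and 4.59 CPM in treated old mice, against 2.57, 3.56 and 4.81 CPM in old mice (log2 fold change 0.14 ± 0.167, and 0.22 without old male 1). The 95% limits of Cd74 ran from -2.21 to 0.17, a range that holds 0.

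No gene of the surrounding lists passed in limma, edgeR or DESeq2 in treated old mice. 9 of 10 peptide loading genes were negative, with a median of -0.07, led by Ctss at -0.27 ± 0.182 and Sppl2a, the protease that clears the last fragment of Cd74 from the membrane, at -0.11 ± 0.0726. Rfx5, the X box binding subunit, had 887 ± 62.3 normalized counts in treated old mice and 1005 ± 26.8 in old mice, a log2 fold change of -0.18 ± 0.0635 (limma unadjusted p = 0.0130, adjusted p = 0.678). Creb1 stood at 0.15 ± 0.0714. On the interferon gamma route 6 of 9 genes were negative, with the transcription factor gene Irf2 at 0.17 ± 0.0686. Of 6 costimulation genes 4 were negative, with Icam1 at -0.50 ± 0.245 and the T cell ligand gene Icosl at -0.44 ± 0.246. All 5 measured partners of Cd74 were negative, with Cd44 at -0.54 ± 0.299 and Ackr3 at -0.10 ± 0.131.

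Reactive microglia markers summed to 1723 to 2083 CPM in treated old mice and 1749 to 2291 CPM in old mice, with 10 of 10 marker estimates negative. Border macrophage markers summed to 23.5 to 37.5 CPM in treated old mice and 31.7 to 37.2 CPM in old mice, and meningeal fibroblast markers to 64.1 to 162 CPM in treated old mice and 134 to 161 CPM in old mice. Hippocampal neuron markers had 8 of 8 negative estimates, with sums of 251 to 797 CPM in treated old mice and 211 to 858 CPM in old mice. Every marker of these lists had reads in both groups, and their part in the class II estimates was not tested.

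APP/PS1 against littermates asked what the transgenes did at 4 months. The estimates of all 7 genes were negative. Their median was -0.57 on the log2 scale, against 0.00 over 16475 genes tested, of which 49.7% were negative and 50.3% positive. None of the 7 passed in limma, where 0.0486% of all genes did, in edgeR (0.0486%) or in DESeq2 (1.59%). Ciita, H2-DMa and H2-Aa had an unadjusted p under 0.05 in limma, all lower, where 5.46% of all genes were lower, 4.72% higher and 10.2% either. Ciita had 1.23, 1.83 and 2.29 CPM as lowest, median and highest in APP/PS1 mice, against 2.16, 2.79 and 4.11 CPM in littermates. The groups overlapped by 1 library on each side. Its normalized counts averaged 64.5 ± 15.4 in APP/PS1 mice and 107 ± 26.0 in littermates (SD, n = 6 each). The log2 fold change was -0.72 ± 0.223 (limma unadjusted p = 0.00640, adjusted p = 0.288), and it stayed between -0.81 and -0.60 when single libraries were left out.

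The chains followed in the same direction with wider spread. H2-Aa had 0.0279, 0.624 and 1.61 CPM in APP/PS1 mice, against 0.519, 1.32 and 1.90 CPM in littermates. Its log2 fold change was -1.55 ± 0.654 (limma unadjusted p = 0.0337, adjusted p = 0.441), and -1.05 without APP/PS1 female 2, which held 1 read of it. The estimate for H2-Aa was -0.996 in edgeR (edgeR unadjusted p = 0.145) and -0.999 in DESeq2 (DESeq2 unadjusted p = 0.114). H2-Ab1 had 0.558, 0.902 and 5.67 CPM in APP/PS1 mice, against 0.710, 1.45 and 2.998 CPM in littermates (log2 fold change -0.37 ± 0.537, but -0.16 without APP/PS1 male 2 and -0.03 in edgeR and DESeq2). H2-Eb1 had 0.355, 0.790 and 3.63 CPM in APP/PS1 mice, against 1.05, 1.25 and 2.36 CPM in littermates (log2 fold change -0.61 ± 0.461). In both, the highest library of the 12 was APP/PS1 female 3.

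Cd74 had 1.53, 3.96 and 12.01 CPM in APP/PS1 mice, against 4.08, 6.62 and 7.82 CPM in littermates. Its log2 fold change was -0.57 ± 0.375 (limma adjusted p = 0.651), and -0.31 without APP/PS1 female 2. Without APP/PS1 female 3, the library with the highest macrophage and microglia sums, it was -0.96 and passed (limma adjusted p = 0.0445), 1 of 256 genes called in that fit, or 1.56% of those tested. In the same fit H2-Aa stood at -2.13 (limma adjusted p = 0.0532), H2-Ab1 at -0.91, H2-Eb1 at -0.995 and Ciita at -0.64 (limma adjusted p = 0.203). H2-DMa had 8.03, 11.03 and 13.2 CPM in APP/PS1 mice, against 12.2, 12.7 and 17.9 CPM in littermates, a log2 fold change of -0.33 ± 0.131 (limma unadjusted p = 0.0257, adjusted p = 0.405). H2-DMb1 had 0.0805, 0.709 and 1.26 CPM in APP/PS1 mice, against 0.331, 0.664 and 0.972 CPM in littermates, with a log2 fold change of -0.30 ± 0.572 that turned to 0.12 without APP/PS1 male 2. For none of the 7 genes did the groups stand clear of each other, while 0.413% of all genes were lower and 0.437% higher in every APP/PS1 library.

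The lists around the class II genes did not pass in any of the 3 tools in APP/PS1 mice. 8 of 10 peptide loading genes were positive, with a median of 0.16, while all 7 class II genes were negative. Ctsb, a lysosomal protease, stood at 0.28 ± 0.0876 (limma unadjusted p = 0.00664, adjusted p = 0.289) and Lgmn, the asparagine endopeptidase, at 0.27 ± 0.126. The transcription factors of the assembly had a median of 0.00 over 7 genes, with Creb1 at 0.05 ± 0.0639 and Nfyb, a Y box binding subunit, at -0.09 ± 0.109. Of 9 genes on the interferon gamma route 5 were positive, with the kinase gene Jak2 at 0.19 ± 0.0701 and the receptor gene Ifngr2 at -0.21 ± 0.124. Of 5 costimulation genes 2 were positive, with Icosl at -0.56 ± 0.247 and Icam1 at 0.42 ± 0.337. Among partners of Cd74, Ackr3 stood at -0.21 ± 0.111 and Cxcr4 at -0.47 ± 0.272.

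Choroid plexus markers summed to 17.8 to 57.9 CPM in APP/PS1 mice, against 27.3 to 589 CPM in littermates, with 8 of 8 negative and a median of -0.89 on the log2 scale. Meningeal fibroblast markers summed to 87.9 to 179 CPM in APP/PS1 mice, against 139 to 311 CPM in littermates, with 8 of 8 negative. Hippocampal neuron markers had 7 of 8 negative estimates, with sums of 400.3 to 824 CPM in APP/PS1 mice and 635 to 838 CPM in littermates. Border macrophage sums ran from 26.2 to 73.8 CPM in APP/PS1 mice and from 23.6 to 45.3 CPM in littermates. Dendritic cell markers summed to 10.3 to 16.7 CPM in APP/PS1 mice and 14.1 to 17.96 CPM in littermates, with 3 of 5 estimates negative, a median of -0.64 and 1 gene called by DESeq2. All markers of these 5 lists had reads in both groups, and their part in the class II estimates was not tested.

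APP/PS1 nanoligomer against APP/PS1 compared 5 treated with 6 untreated libraries. 3 of the 7 genes were positive and 4 negative. Their median was -0.05 on the log2 scale, against -0.00 over 16124 genes tested. Positive estimates made up 49.4% of all genes and negative ones 50.6%. None of the 7 was called by limma, edgeR or DESeq2, which called 0%, 0% and 0.0436% of all genes. H2-DMa alone had an unadjusted p under 0.05, where 1.45% of all genes were higher, 1.51% lower and 2.96% either. It had 13.5 and 12.2 CPM in treated females and 13.3, 16.1 and 13.5 CPM in treated males, against 8.03, 11.03 and 13.2 CPM as lowest, median and highest in APP/PS1 mice. The groups overlapped through 1 APP/PS1 library, female 3, which exceeded the lowest treated library. The log2 fold change of H2-DMa was 0.34 ± 0.125 (limma unadjusted p = 0.0191, adjusted p = 0.997).

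Cd74 had 2.998 and 20.3 CPM in treated females and 4.15, 1.69 and 1.45 CPM in treated males, against 1.53, 3.96 and 12.01 CPM as lowest, median and highest in APP/PS1 mice. Its log2 fold change was -0.05 ± 0.644 and -0.72 without APP/PS1 nanoligomer female 2. H2-Aa had 0.755 and 4.39 CPM in treated females and 0.959, 0.0512 and 0.304 CPM in treated males, against 0.0279, 0.624 and 1.61 CPM in APP/PS1 mice. Its log2 fold change was 0.62 ± 1.05, and -0.23 without female 2. All 7 genes overlapped between the groups, where 0.155% of all genes stood apart in each direction. H2-Ab1 had 0.519 and 2.79 CPM in treated females and 0.571, 0.692 and 0.0651 CPM in treated males, against 0.558, 0.902 and 5.67 CPM in APP/PS1 mice (log2 fold change -0.81 ± 0.742, -1.33 without female 2 and -0.29 without male 3 of the treated group). H2-Eb1 had 1.02 and 1.01 CPM in treated females and 0.274, 0.333 and 0.304 CPM in treated males, against 0.355, 0.790 and 3.63 CPM in APP/PS1 mice (log2 fold change -0.65 ± 0.387). H2-DMb1 had 0.519 and 1.49 CPM in treated females and 0.456, 0.640 and 0.195 CPM in treated males, against 0.0805, 0.709 and 1.26 CPM in APP/PS1 mice. The log2 fold changes of H2-DMb1 and Ciita were 0.29 ± 0.616 and -0.08 ± 0.257. Ciita had 2.22 and 1.30 CPM in treated females and 1.28, 1.54 and 1.84 CPM in treated males, against 1.23, 1.83 and 2.29 CPM in APP/PS1 mice.

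**Figure D2:**
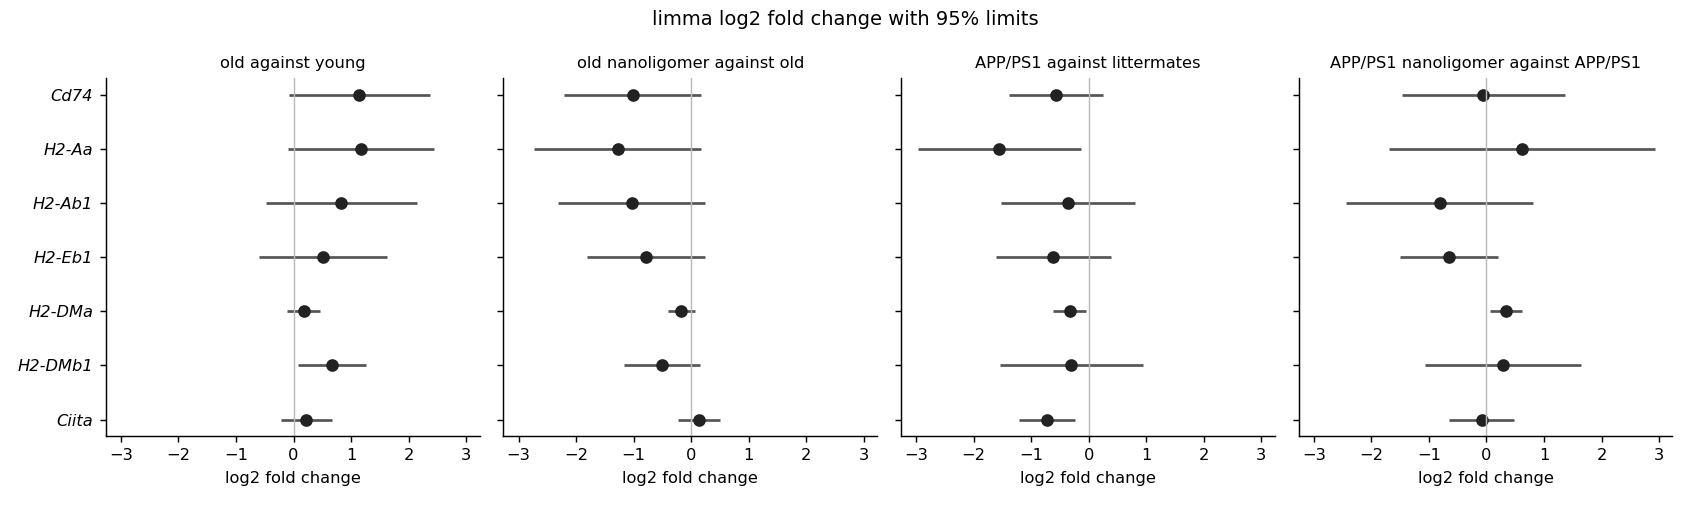
Log2 fold change of each gene in the 4 comparisons, with 1 point per gene and bars for the 95% limits of limma. All 7 points lie right of 0 for old against young and left of 0 for APP/PS1 against littermates, and most bars cross 0.

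No gene of the lists around class II passed in treated APP/PS1 mice by limma, edgeR or DESeq2. 8 of 10 peptide loading genes were negative, with a median of -0.13, led by Ctss at -0.46 ± 0.226 and Ctsl at -0.18 ± 0.115. Cd86 had 28.8 ± 7.67 normalized counts in treated mice and 61.1 ± 34.0 in APP/PS1 mice, a log2 fold change of -0.91 ± 0.348 (limma unadjusted p = 0.0232, adjusted p = 0.997), and Cd40 stood at -0.32 ± 0.522. Ackr3, a chemokine receptor gene, stood at 0.29 ± 0.116 and Cd44 at -0.40 ± 0.439. Nfya and Rfx5 stood at -0.19 ± 0.0979 and -0.19 ± 0.114, Ifngr1 at -0.24 ± 0.125 and Irf8 at -0.55 ± 0.321. Choroid plexus markers summed to 61.8 to 3883 CPM in treated mice, against 17.8 to 57.9 CPM in APP/PS1 mice, with 8 of 8 estimates positive, and homeostatic microglia markers to 367 to 405 CPM in treated mice and 350.2 to 784 CPM in APP/PS1 mice, with 12 of 12 negative. All of these markers had reads in both groups, and their part in the class II estimates was not tested.

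Effects were also set against each other between arms, in fits of comparisons that share no library. For the transgene effect minus the age effect, 0 of 7 genes passed in limma, where 0.0429% of all genes did. 4 of the 7 had an unadjusted p under 0.05, where 11.8% of all genes did: H2-Aa with a difference of -2.72 ± 0.923, Cd74 with -1.72 ± 0.721, Ciita with -0.95 ± 0.3004 and H2-DMa with -0.51 ± 0.190. Their limma adjusted p ran from 0.274 to 0.369. For the treatment effect in APP/PS1 mice minus that in old mice, none passed, where 0% of all genes did. H2-DMa had a difference of 0.52 ± 0.163 (limma unadjusted p = 0.00485, adjusted p = 0.918), and 4.35% of all genes had an unadjusted p under 0.05. For Cd74 the difference between treatments was 0.96 with 95% limits of -0.92 and 2.85.

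Females and males were compared within each comparison, and 0 of the 28 differences passed in limma, as for 0% of all genes in each of the 4 tables. 2 of them had an unadjusted p under 0.05, where 4.39%, 4.71%, 5.1% and 4.52% of all genes did in the 4 comparisons. The effect of age on Ciita was -0.26 ± 0.225 in females and 0.71 ± 0.225 in males, a difference of -0.97 ± 0.318 (limma unadjusted p = 0.0108, adjusted p = 0.983). The effect of the transgenes on H2-Eb1 was 0.54 ± 0.484 in females and -1.77 ± 0.484 in males, a difference of 2.32 ± 0.685 (limma unadjusted p = 0.00550, adjusted p = 0.847). APP/PS1 males had 0.670, 0.510 and 0.355 CPM of H2-Eb1, against 1.35, 2.36 and 1.84 CPM in male littermates. APP/PS1 females had 0.910, 1.34 and 3.63 CPM, against 1.12, 1.05 and 1.15 CPM in female littermates. The males of the groups did not overlap and the females did. Nor did the males for Cd74, H2-Aa, H2-Ab1, H2-DMa and Ciita, so 6 of the 7 genes were lower in every APP/PS1 male than in any male littermate, against 14.3% of all genes with a mean of at least 0.3 CPM. In females this held for Ciita alone, against 4.15% of genes. Several of the 6 genes vary together, and differences between sexes passed for none of them. With age, Cd74, H2-Ab1 and Ciita were higher in every old male than in any young male, against 4.2% of genes, and no member separated the females. These counts over 3 against 3 libraries are descriptions that were added after the data were seen. The effect of age on Cd74 was 0.33 ± 0.758 in females and 1.96 ± 0.758 in males, where old male 1 is 1 of 3 old males.

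Ordered by mean log2 CPM, old mice came first of the 6 groups for 6 of the 7 genes and second, after treated old mice, for Ciita. APP/PS1 or treated APP/PS1 mice came last for all 7. Of the 35 pairs of neighbours in these orders, 3 had p under 0.05 in exact permutation tests and 0 after adjustment over the 35. Young mice stood above littermates for H2-DMb1, by 1.22 on the log2 scale (exact two-sided permutation p = 0.00216, the smallest that 6 against 6 allows, adjusted p = 0.0758). Littermates and APP/PS1 mice were neighbours for Ciita, 0.71 apart (exact two-sided permutation p = 0.00433, adjusted p = 0.0758). Treated old mice and APP/PS1 mice were neighbours for H2-DMa, 0.27 apart (exact two-sided permutation p = 0.0281, adjusted p = 0.328). For the others, the differences lay within the spread of the libraries.

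Across libraries, Cd74 and the chains of the classical molecules varied together. With the mean of each group and sex taken out, Pearson's r of Cd74 with H2-Aa was 0.95 in the 18 libraries of the aging arm (Spearman's rho 0.94) and 0.90 in the 17 of the transgenic arm (rho 0.83). Both r had the smallest permutation p that the resampling can give, 1e-05, with an adjusted p of 2.57e-05 over 18 relations. Libraries were shuffled across groups and sexes although those means had been taken out, so permutation p of all 18 relations can be too small. Leaving out the 2 libraries whose Cd74 lay farthest from the median after those means were taken out gave 0.94 and 0.83. The means were not taken anew, so the weight of these libraries is not fully removed here or below. For H2-Ab1, r was 0.93 in the aging arm and 0.82 in the transgenic arm (rho 0.86 and 0.74, permutation p = 1e-05 and 6.00e-05, adjusted p = 2.57e-05 and 0.000135), and 0.89 and 0.67 without the 2 farthest libraries. H2-Eb1 gave r of 0.91 in the aging arm (rho 0.80, permutation p = 1e-05, adjusted p = 2.57e-05), and 0.83 without the farthest 2. In the transgenic arm it gave 0.45 (rho 0.20, permutation p = 0.0707, adjusted p = 0.0980), and 0.11 without them.

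H2-DMa, H2-DMb1 and Ciita had lower r with Cd74. H2-DMa had r of 0.50 in the aging arm (rho 0.47, permutation p = 0.0340, adjusted p = 0.0557), which was 0.21 without the farthest 2 libraries, and 0.32 in the transgenic arm (rho 0.16, permutation p = 0.208, adjusted p = 0.2499), which was 0.17. H2-DMb1 had 0.30 in the aging arm (rho 0.17, permutation p = 0.226, adjusted p = 0.255) and 0.48 in the transgenic arm (rho 0.60, permutation p = 0.0533, adjusted p = 0.0800), with -0.14 and 0.36 without the farthest 2. Ciita, the coactivator of all of them, had r of 0.26 in the aging arm (rho 0.30, permutation p = 0.304, adjusted p = 0.322) and -0.41 in the transgenic arm (rho -0.22, permutation p = 0.0990, adjusted p = 0.127), with 0.05 and -0.19 without the farthest 2. The X and Y letters shown above stand in the windows of H2-Aa, H2-Eb1 and H2-DMb1, and no window was at hand for Cd74, H2-Ab1 or Ciita. Whether these letters bear on the correlations was not tested.

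**Figure D3:**
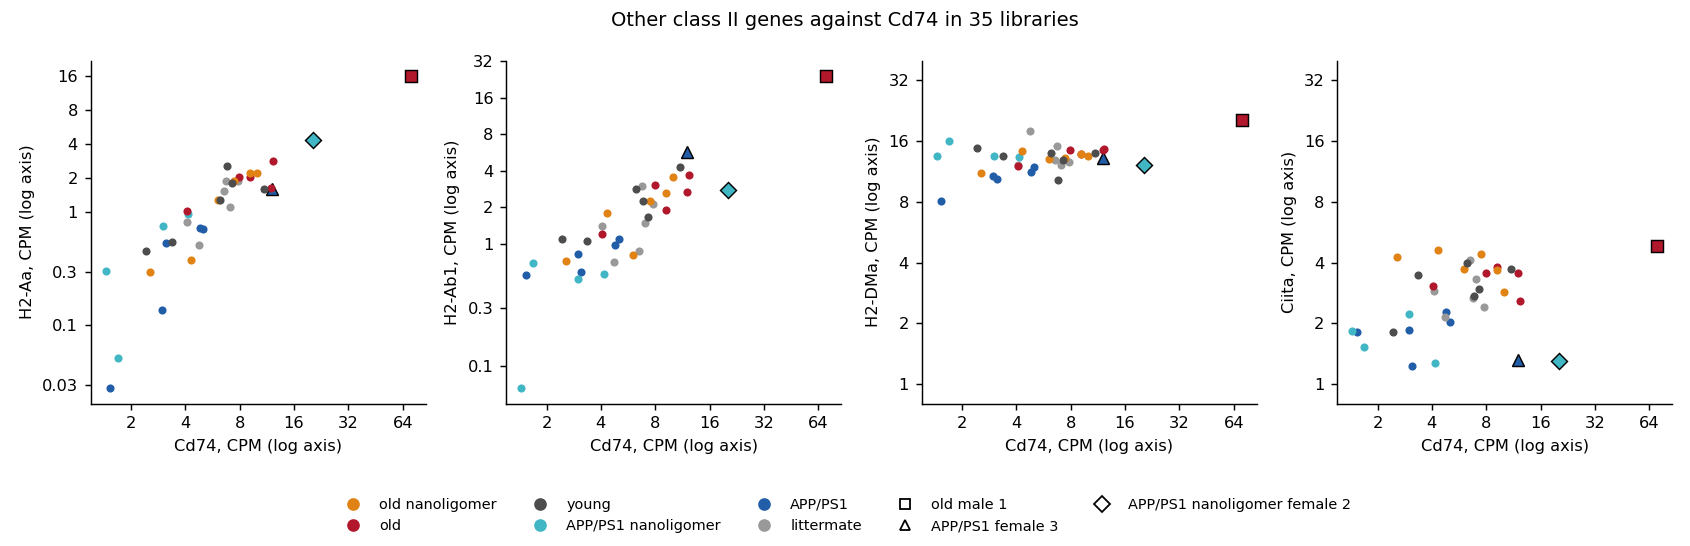
CPM of H2-Aa, H2-Ab1, H2-DMa and Ciita against CPM of Cd74 on log axes, with 1 point per library coloured by group. H2-Aa and H2-Ab1 climb with Cd74 across groups, while H2-DMa stays between 8.03 and 20.2 CPM and Ciita between 1.23 and 4.81 CPM.

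Outside the 7 genes, the 8 whose residuals were most like the mean of Cd74, H2-Aa, H2-Ab1 and H2-Eb1 were picked from 16413 candidates over the 35 libraries. Mir5107 came first with r of 0.94, and it lies inside Cd74 and can share its reads. Gbp2, an interferon-induced GTPase, had r of 0.81, the interferon-induced transcription factor gene Irf1 0.79, the class I heavy chain gene H2-K1 0.79 and Nlrc5, the coactivator of class I genes, 0.76. Gbp3, another GTPase of the Gbp2 family, followed with 0.76, Mcm2, a subunit of the replication helicase, with 0.73 and Pdlim5, a scaffold of the cytoskeleton, with 0.73. Without old male 1 and APP/PS1 female 3 these r ran from 0.59 to 0.91, though the group and sex means still included both libraries. In old male 1, Gbp2 stood at 37.9 CPM, against 3.63 to 8.28 CPM in the other old libraries. Irf1 stood at 36.5 CPM in that library, against 7.78 to 12.2 CPM, and Nlrc5 at 18.4 CPM, against 1.16 to 4.73 CPM. Since old male 1 is among the libraries that chose these genes, its values are a description. By arm, r was 0.95 in the aging and 0.51 in the transgenic arm for Gbp2, 0.91 and 0.57 for Irf1, and 0.88 and 0.54 for Nlrc5, while for H2-K1 it was 0.79 and 0.83.

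In APP/PS1 female 3 the order was another. H2-K1 stood at 3.98 times the median of the other APP/PS1 libraries, Gbp2 at 2.63 and Nlrc5 at 2.87, while Irf1 stood at 0.973. In APP/PS1 nanoligomer female 2 the same ratios were 2.16 for H2-K1, 2.18 for Gbp2, 1.37 for Nlrc5 and 1.45 for Irf1. Ifng, the gene of interferon gamma, had 0 reads in old male 1, which allows up to 0.0763 CPM by a limit of 3 reads that covers counting error only, and at most 0.163 CPM in the other old libraries. Cd274, an inhibitory ligand of T cells named here after its values were seen, had 37.5 CPM in old male 1, against 3.17 to 4.90 CPM in the other old libraries. Other genes of the same costimulation list were not raised there. Cd86 had 1.25 CPM in old male 1, against 1.93 to 3.23 CPM in the other old libraries, and Cd40 0.229 CPM, against 0.0932 to 0.543 CPM.

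**Figure D4:**
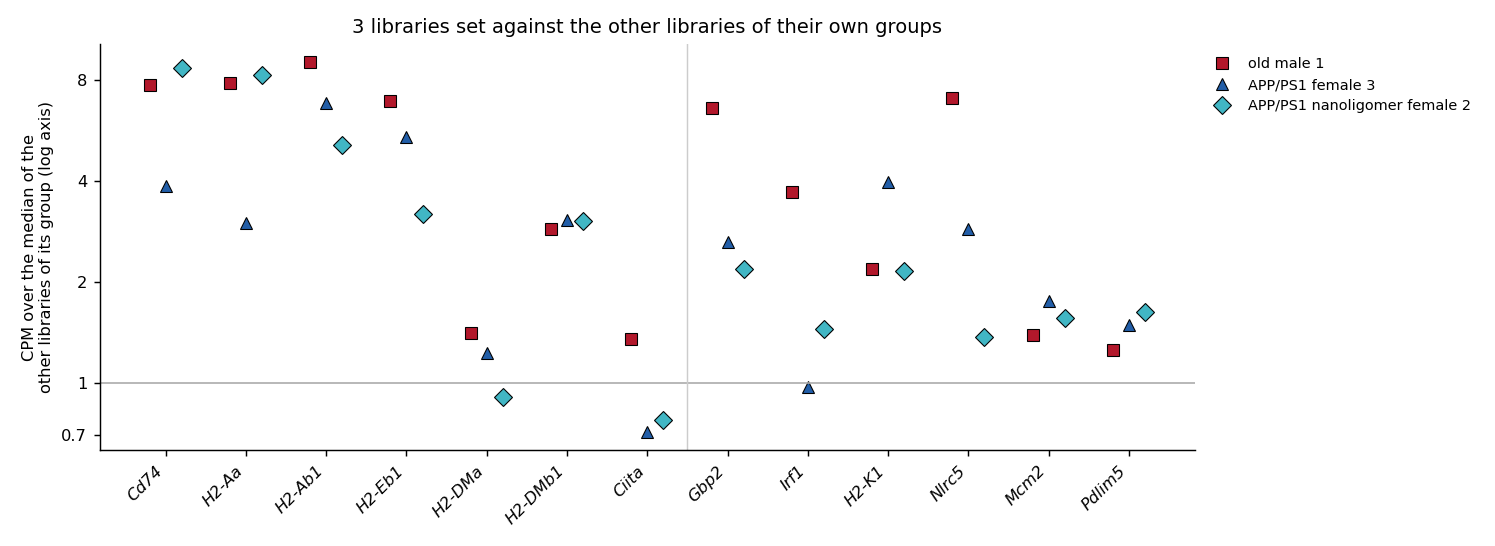
Level of 13 genes in old male 1, APP/PS1 female 3 and APP/PS1 nanoligomer female 2, each divided by the median of the other libraries of its group, on a log axis with a line at 1. Cd74, H2-Aa, H2-Ab1 and H2-Eb1 lie between 3.003 and 9.03 in the 3 libraries, while Irf1 and Nlrc5 are highest in old male 1, at 3.71 and 7.06. H2-Eb1 of APP/PS1 nanoligomer female 2, at 1.01 CPM, did not exceed the highest of the other libraries of its group (1.02 CPM).

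The medians of all 7 genes were lower in the transgenic arm than in the aging arm. H2-DMb1 had 0.973 to 6.03 CPM in the 18 libraries of the aging arm, with a median of 2.03. In the 17 of the transgenic arm it had 0.0805 to 1.49 CPM, with a median of 0.590. 13 of the 17 lay below the lowest library of the aging arm, the 6 littermates among them, the highest at 0.972 CPM. As many did for 1.34% of the 16420 genes with a mean of at least 0.3 CPM. The same count was 9 for H2-Eb1 and 7 for H2-Ab1, reached by 3.95% and 6.63% of genes, and 5 for Ciita, reached by 11.7%. It was 3 for Cd74 and H2-Aa, reached by 21.9%. H2-DMa, the partner of H2-DMb1, had 10.3 to 20.2 CPM in the aging arm and 8.03 to 17.9 CPM in the transgenic arm. There 1 library lay below, as for 54% of genes. Per 100 reads of H2-DMa, medians of H2-DMb1 were 14.7 in treated old, 15.1 in old and 11.2 in young mice, and 3.86 in treated APP/PS1 mice, 6.37 in APP/PS1 mice and 4.02 in littermates. Age, cohort and strain background all differ, or may differ, between the arms and cannot be told apart.

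H2-Ea-ps, annotated as a polymorphic pseudogene at 34341959 to 34344645 on the minus strand of chromosome 17, is the alpha chain partner of H2-Eb1. As background, C57BL/6 mice carry a deletion in its promoter and make no I-E molecule. It had 4 reads in all 18 libraries of the aging arm together, with 16 of them at 0, which allows up to 0.0648 to 0.109 CPM per library over the 35 libraries. In the transgenic arm it had 164 reads in 17 libraries, with 12 of them above 0 and up to 43 reads. Treated APP/PS1 mice had reads in 4 of 5 libraries, APP/PS1 mice in 4 of 6 and littermates in 4 of 6. Per 100 reads of H2-Eb1, their medians were 16.3, 22.2 and 10.3. The other chains were low everywhere. H2-Eb2 had 9 reads in the aging arm and 16 in the transgenic arm. H2-DMb2 ranged from 0.0268 to 1.53 CPM, H2-Oa, a chain of the inhibitor of H2-DM, from 0.0434 to 1.32 CPM, and H2-Ob, its partner, from 0 to 1.45 CPM.

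**Figure D5:**
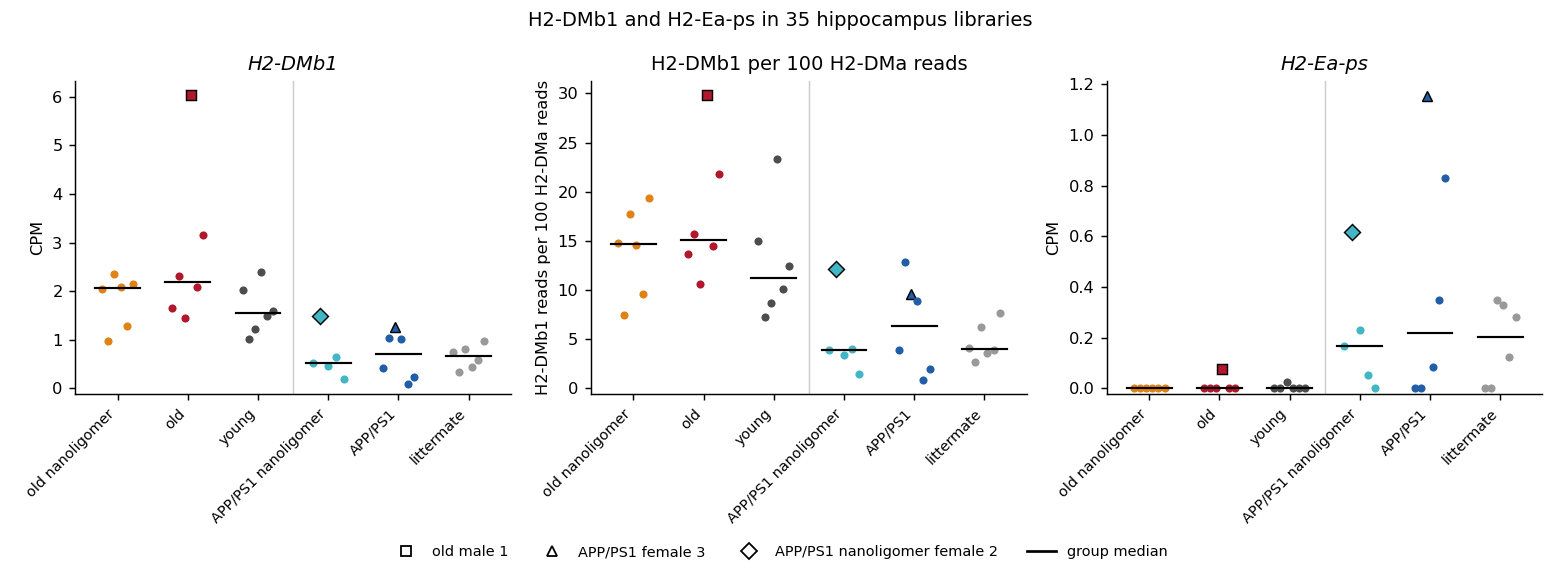
CPM of H2-DMb1, its reads per 100 reads of H2-DMa and CPM of H2-Ea-ps, with 1 point per library and a line at the group median. The aging arm is on the left of each panel, with 0.973 to 6.03 CPM of H2-DMb1 and at most 3 reads of H2-Ea-ps per library, and the transgenic arm on the right.

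None of these other chains passed in limma in any comparison. H2-Oa had 33.4 ± 14.7 normalized counts in old mice and 12.1 ± 7.50 in young mice, a log2 fold change of 1.53 ± 0.480 (limma unadjusted p = 0.00757, adjusted p = 0.599), and H2-DMb2 stood at -0.20 ± 0.516. In treated against untreated old mice H2-Oa stood at -0.69 ± 0.343 and H2-Ob at 0.37 ± 0.460. In APP/PS1 mice against littermates H2-Ob stood at 0.80 ± 0.504 and H2-Oa at -0.58 ± 0.550, and in treated against untreated APP/PS1 mice H2-Ob at -1.54 ± 0.714 and H2-DMb2 at 0.51 ± 0.906. EdgeR and DESeq2 called none of them either.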

How the data were processed

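The authors deposited 4 tables of normalized counts, a signal in which each library is divided by its own size factor, with 12 libraries in each. Per the submitters' processing notes, mm10 was the genome and STAR and DESeq2 were among the tools. Their versions and roles are not given there. Dividing each library by its smallest step recovered whole reads for 100% of values within 0.001 reads, and the 12 libraries held in 2 tables gave identical reads. 0 columns were left unused. For APP/PS1 nanoligomer male 3, column and title are 1 letter apart.

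Each comparison was fitted in its own table with limma 3.58.1 (R 4.3.3) on log2 of the normalized count plus 1, with sex and group terms and an intensity trend. Genes with a mean of at least 10 were fitted and p-values adjusted by Benjamini-Hochberg over all of them, with a call at an adjusted p under 0.05. Fold changes are on this scale, which can understate or overstate those of low genes. EdgeR 4.0.16 (quasi-likelihood) and DESeq2 1.42.0 were run on recovered reads. The code was tested on simulated counts. CPM and RPKM came from recovered reads and GENCODE M21 exons, and correlations and group orders used log2 of CPM plus 0.1. Members, lists and tests were chosen with earlier results of these data known. Named genes are the members, called genes of each list or else its 2 of smallest p, 8 most alike genes and the other class II chains. A gene that this rule names on the interferon gamma route is not reported here.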

Additional observations from a re-analysis of the deposited data

Results flagged for a closer look

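In 42 sets of libraries (7 genes in 6 groups), 13 had a highest or lowest library whose gap to the next exceeded the 95% critical value of Dixon's test, where chance gives about 1 in 20. Old male 1 stood above the other old libraries for Cd74 (70.7 CPM), H2-Aa (16 CPM), H2-Ab1 (24.0 CPM), H2-Eb1 (16 CPM), H2-DMa (20.2 CPM) and H2-DMb1 (6.03 CPM). APP/PS1 female 3 stood above its group for Cd74 (12.01 CPM), H2-Ab1 (5.67 CPM) and H2-Eb1 (3.63 CPM). APP/PS1 nanoligomer female 2 stood above its group for Cd74 (20.3 CPM), H2-Aa (4.39 CPM) and H2-Ab1 (2.79 CPM). Old nanoligomer male 3 stood below its group for H2-DMa (11.05 CPM). The genes vary together, so these sets are not independent.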

How the results depend on the processing

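The number of the 7 genes called was 0 in each comparison under every filter, pseudocount, scaling, trend and sex term tried and in edgeR and DESeq2. Leaving out single libraries gave 0 in 3 comparisons and 0 to 1 in APP/PS1 against littermates, where Cd74 passed without APP/PS1 female 3. Of 623 estimates under alternatives, 606 kept their direction and side of the threshold.

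16 estimates, none of them called, changed sign. For APP/PS1 nanoligomer against APP/PS1, Cd74 moved to 0.19 with the replicate block, 0.0767 in edgeR and 0.0732 in DESeq2, and ran from -0.72 to 0.21 over single libraries left out. H2-Aa ran from -0.23 to 1.30, H2-DMb1 from -0.0938 to 0.70 and Ciita from -0.24 to 0.0176. With the shallow female 3 of the treated group, H2-Aa stood at -0.10 and H2-DMa at -1.07. For APP/PS1 against littermates, H2-DMb1 ran from -0.61 to 0.12. The cause was not tested.

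Deviations of same-numbered libraries were weakly correlated (r from -0.25 to 0.29), and no source used here says what a shared number means. With the replicate block limma called 0 of the 7 genes in each comparison. Over all genes limma called 6, 0, 8 and 0 in the 4 comparisons and DESeq2 123, 2, 256 and 7. The block left 1 call with age, leaving out old female 1 gave 11, and leaving out APP/PS1 female 1 or 3 gave 21 or 256 with the transgenes. Without the low-value filter 1 gene was called in treated APP/PS1 mice. Low chains such as H2-Aa, with 1 to 5 reads in some libraries, are limited by depth.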
